A study of Mus musculus with 8 samples.

Results

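The genes described here encode the subunits of the ATP-sensitive potassium channel: Abcc8 and Abcc9, which encode the sulfonylurea receptors SUR1 and SUR2, and Kcnj11 and Kcnj8, which encode the pores Kir6.2 and Kir6.1. The 4 genes were taken by name from a table of RPKM values (reads scaled by gene length and by library size) that had 26786 genes above 0, and all 4 were among them. RNA had been sequenced from islet cells of adult mice sorted by flow cytometry, in 8 libraries. The mice carried the red nuclear reporter Ins1-H2b-mCherry, driven by the Ins1 promoter, and Gcg-cre, which switches on a floxed YFP allele in cells that have expressed glucagon. Transdifferentiated cells carried both labels and thus an alpha cell lineage mark with an active insulin reporter (2 libraries, 1 male pool and 1 female pool). Beta cells were sorted as mCherry-positive (3 libraries, replicates 1 and 2 female and replicate 3 male). Alpha cells were sorted as YFP-positive (3 libraries, replicates 1 and 2 male and replicate 3 female). All groups thus came from animals with reporter transgenes, each library held islets pooled from 10 to 12 animals, and the islets had spent a night in culture at 5.5 mM glucose before sorting. The series' design text says that the sorted populations shared their islets, and it names bitransgenic females beside the triple transgenic animals without saying which libraries they gave. Beta replicates 1 and 2 have titles that differ only by a letter b, as do alpha replicates 1 and 2, so each pair may stem from a single pool. Counted reads differed within these pairs about as much as between other libraries of the group: the mean chi-square per gene was 33.6 in the beta pair and 24.4 and 28.4 in the other beta pairs, and 31.9 in the alpha pair and 12.3 and 35.4 in the other alpha pairs. They were kept as separate replicates, and the Abcc8 results are also given with each pair averaged.

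The channel is an assembly of pore subunits and sulfonylurea receptors in equal number. In beta cells, ATP made from glucose closes it, which depolarises the membrane, opens voltage-gated calcium channels and releases insulin; sulfonylurea drugs close it through the receptor, and magnesium-bound ADP opens it there. Pancreatic endocrine cells use the pair SUR1 and Kir6.2, whereas SUR2 and Kir6.1 are known from heart and from vascular smooth muscle. Alpha cells carry the same pair as beta cells. In the mouse the genes lie as a receptor and a pore side by side at 2 places. Kcnj11 (chromosome 7, 46093953 to 46100764, minus strand, GRCm38) and Abcc8 (46104523 to 46180033, minus strand) are separated by 3758 bases. Kcnj8 (chromosome 6, 142564837 to 142571614, minus strand) and Abcc9 (142587862 to 142702315, minus strand) are separated by 16247 bases.

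The promoters of Abcc9 and Kcnj8, whose RNA was at or near 0 in every library, are shown as those of the subunit genes that had an entry in the promoter table used. Each runs from 250 bases before to 50 bases after the annotated gene start on the minus strand of chromosome 6 (RefSeq, GRCm38.p6), and 2 of the 4 genes matched. Capitals mark an E-box, CANNTG, in both and a match to the MEF2 consensus in Abcc9.
Abcc9, chr6:142702225-142702524: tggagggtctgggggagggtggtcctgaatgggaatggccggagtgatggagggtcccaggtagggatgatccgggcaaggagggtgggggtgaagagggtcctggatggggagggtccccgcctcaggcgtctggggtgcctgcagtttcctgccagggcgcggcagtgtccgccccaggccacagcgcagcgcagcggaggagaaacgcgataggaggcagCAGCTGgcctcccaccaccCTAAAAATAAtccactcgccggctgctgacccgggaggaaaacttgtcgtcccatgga
Kcnj8, chr6:142571565-142571864: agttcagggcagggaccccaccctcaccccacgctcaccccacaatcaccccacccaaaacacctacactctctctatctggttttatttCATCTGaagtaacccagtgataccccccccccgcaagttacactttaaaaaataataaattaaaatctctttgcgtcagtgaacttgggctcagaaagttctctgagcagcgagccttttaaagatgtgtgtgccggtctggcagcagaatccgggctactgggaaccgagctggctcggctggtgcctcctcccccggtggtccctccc
Both motifs were searched on both strands and their matches do not overlap; the MEF2 motif was chosen after the Abcc9 sequence had been read. MEF2 factors act in muscle, and E-boxes are bound by basic helix-loop-helix factors such as NeuroD1. The E-box is common: 72.3% of 32851 mouse promoters of this length held it. The MEF2 match begins 8 bases before the RefSeq start of Abcc9. The gene coordinates given above place that start further upstream, at 142702315, so by them the match lies within the gene. Of the 32851 promoters 3.19% held such a match, the Kcnj8 window not being among them. A match describes letters and is not evidence of binding.

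The libraries differed in depth. Because RPKM values move in steps of a single read, the reads themselves could be worked out. They summed to 1244243 and 2167357 in transdifferentiated, 14336880 to 21395660 in beta and 12911992 to 14094680 in alpha cell libraries. The summed level of 9 alpha cell markers was 20300 to 20400 RPKM in transdifferentiated, 664 to 2020 RPKM in beta and 176000 to 204000 RPKM in alpha libraries. That of 10 beta cell markers was 141000 to 148000 RPKM in transdifferentiated, 188000 to 244000 RPKM in beta and 2520 to 3220 RPKM in alpha libraries. Differences were tested with limma on log2(RPKM + 0.5) in a single fit with cell group and sex as terms, over 13172 genes with at least 1 RPKM in at least 2 libraries. Only Abcc8 and Kcnj11, 2 of the 4 subunit genes, passed that filter. Some other genes named below reached 1 RPKM in only some of the groups, so the filter itself favoured a difference from the remaining groups. A gene was called at a Benjamini-Hochberg adjusted p under 0.05 over all genes tested. On simulated data, calls of transdifferentiated against beta cells held nearly as many false as true ones. Almost all of the false ones were in genes with a mean under 10 RPKM, so such calls named below are uncertain.

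Abcc8, the receptor subunit that binds sulfonylureas in islet cells, was abundant in all 3 cell populations and highest in the transdifferentiated cells. It was at 334.9 and 303.3 RPKM in the transdifferentiated libraries. The beta libraries had 205.5, 223.2 and 195.2 RPKM. The alpha libraries had 214.5, 223.6 and 260.0 RPKM. Both transdifferentiated libraries thus lay above all 6 others, as they did for 13.1% of all genes tested, while the beta and alpha libraries overlapped. Reads were not the limit for this gene: the shallowest library still held 2064 reads of Abcc8, with a 95% exact Poisson interval of 321 to 350 RPKM, and PCR duplicates were not marked by molecular identifiers, so such intervals cover counting error only. By its mean, Abcc8 ranked 60 among genes in transdifferentiated, 101 in beta and 75 in alpha cells.

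**Figure D1:**
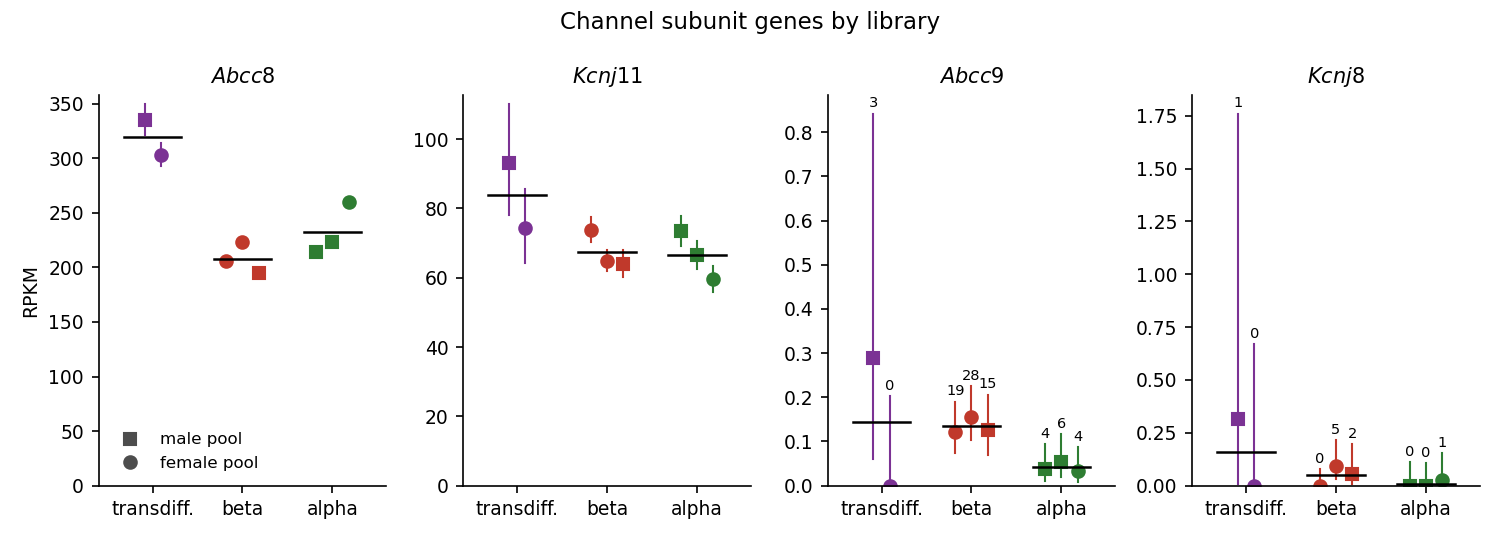
RPKM of the 4 subunit genes in each library, by group (squares, male pools; circles, female pools; thin lines, 95% Poisson intervals of the reads; black bars, group means; digits over Abcc9 and Kcnj8, reads). The 2 transdifferentiated libraries are above all others for Abcc8, for Kcnj11 the second of them is within 1 RPKM of the highest beta and alpha libraries, and Abcc9 and Kcnj8 rest on 28 reads or fewer in any library.

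Against beta cells, Abcc8 rose: transdifferentiated cells had 319.1 ± 22.3 RPKM (SD, n = 2) and beta cells 208.0 ± 14.2 RPKM (SD, n = 3). The log2 difference was 0.63 (SE 0.11, limma adjusted p = 0.0189), a fold of 1.55 with a 95% interval of 1.29 to 1.86 on the log2(RPKM + 0.5) scale. This was 1 of the 2 tested subunit genes; 12% of all genes tested were called in this comparison, 9.1% as higher and 2.9% as lower. The median difference over all genes was 0.09, so that Abcc8 stood 0.54 above it. Scaling by the median ratio moved that median to -0.03 and Abcc8 to 0.50 (limma adjusted p = 0.0343), and of the called genes 52.7% were then higher, against 75.8% without it. The call ended in a fit without the filter on low values (adjusted p = 0.0563), after quantile normalization (0.67, adjusted p = 0.0578), and without transdifferentiated replicate 1 (0.48, adjusted p = 0.067), beta replicate 1 (adjusted p = 0.0604) or beta replicate 3 (adjusted p = 0.091). With the same-title libraries averaged into 1 replicate, a choice made after seeing the data, the difference was 0.64 and was not called (SE 0.13, limma adjusted p = 0.0642). In bulk RNA, a change in the number of cells that hold a transcript and a change in RNA per cell cannot be told apart. The difference had the same sign within each sex, at 0.78 between male pools (335 against 195 RPKM, 1 library each) and 0.50 between female pools (303 against 214 RPKM, 1 and 2 libraries).

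Against alpha cells, Abcc8 was also higher in transdifferentiated cells, at 319.1 ± 22.3 RPKM against 232.7 ± 24.1 RPKM in alpha cells (SD, n = 2 and 3). The log2 difference was 0.44 (SE 0.11, limma adjusted p = 0.0247), a fold of 1.36 with a 95% interval of 1.13 to 1.63. In this comparison 29.9% of all genes tested were called, 23.2% as higher and 6.67% as lower, and the median over all genes was 0.17, which left Abcc8 at 0.27 above it. Median-ratio scaling moved that median to -0.04 and the share of calls that were higher to 51.5%, against 77.6% without it. The call ended when the libraries were scaled by the median ratio over genes (0.21, adjusted p = 0.21) or quantile normalized (0.33, adjusted p = 0.206). It also ended without the filter (adjusted p = 0.0681), without transdifferentiated replicate 1 (0.26, adjusted p = 0.183) and without alpha replicate 1 (adjusted p = 0.0651) or alpha replicate 2 (adjusted p = 0.0644), and with the same-title libraries averaged (0.42, SE 0.13, adjusted p = 0.0802). Within sexes the log2 difference was 0.61 in male pools and 0.22 in female pools. Both contrasts use the same transdifferentiated libraries.

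Between alpha and beta cells no difference in Abcc8 passed the test. Alpha cells held 232.7 ± 24.1 RPKM and beta cells 208.0 ± 14.2 RPKM (SD, n = 3 each), a log2 difference of 0.19 (SE 0.10, limma adjusted p = 0.175) with a 95% interval of -0.05 to 0.44. In this comparison 43.6% of all genes tested were called, 16.9% as higher and 26.7% as lower in alpha cells. Of these genes 74.7% differed by more than Abcc8 in either direction.

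Kcnj11 encodes the pore through which potassium leaves the cell and carries the site at which ATP closes the channel. It was at 93.16 and 74.33 RPKM in the transdifferentiated libraries. The beta libraries had 73.70, 64.86 and 64.03 RPKM, and the alpha libraries had 73.47, 66.48 and 59.63 RPKM. Both transdifferentiated libraries were thus above the other 6, as they were for 13.1% of all genes tested, but replicate 2 by less than 1 RPKM. The beta and alpha libraries overlapped. The 2 transdifferentiated values rested on 136 and 189 reads, with 95% intervals of 78.2 to 110 and 64.1 to 85.7 RPKM. The second interval spans the highest values of both other groups. By its mean, Kcnj11 ranked 359 among genes in transdifferentiated, 551 in beta and 385 in alpha cells.

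No difference in Kcnj11 passed the test in any of the 3 comparisons. Transdifferentiated cells had 83.75 ± 13.3 RPKM, beta cells 67.53 ± 5.36 RPKM and alpha cells 66.53 ± 6.92 RPKM (SD, n = 2, 3 and 3). The log2 difference was 0.28 against beta cells (SE 0.13, limma adjusted p = 0.179), with a 95% interval of -0.02 to 0.58. It was 0.35 against alpha cells (SE 0.13, limma adjusted p = 0.0781), with an interval of 0.05 to 0.65 before adjustment over genes, and reached an adjusted p of 0.0479 without beta replicate 3. For alpha against beta cells it was -0.07 (SE 0.12, limma adjusted p = 0.665), with an interval of -0.34 to 0.21, and its sign was not stable: it was 0.03 with median-ratio scaling and 0.29 after quantile normalization. Of all genes tested, 91.0% differed by more than this between alpha and beta cells.

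No difference between sexes passed the test in the subunit genes. The male minus female log2 difference was -0.10 for Abcc8 (SE 0.09, limma adjusted p = 0.853) and 0.13 for Kcnj11 (SE 0.10, limma adjusted p = 0.843), where 6 genes or 0.0456% of those tested were called. A further fit with a term for each group and sex asked if alpha and beta cells differed by another amount in males than in females. The male minus female change in that difference was -0.11 for Abcc8 (SE 0.19) and 0.34 for Kcnj11 (SE 0.20), each with a limma adjusted p of 0.999. No gene (0%) was called in that test by limma, and none by limma voom; 201 genes were below 0.05 in limma before adjustment, and without the filter on low values 668 were called.

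**Figure D2:**
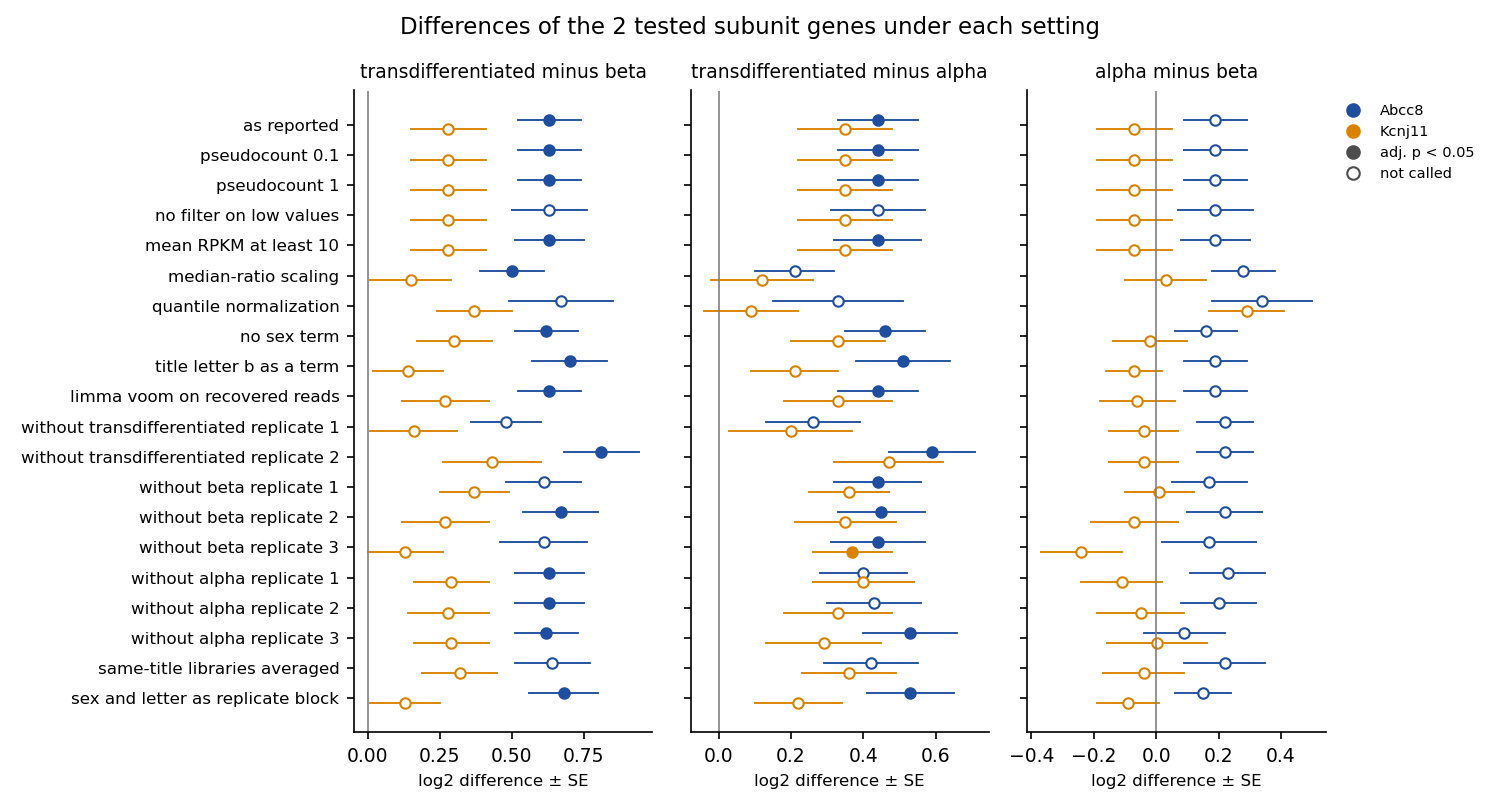
Log2 differences (points) with standard errors (lines) of Abcc8 and Kcnj11 in each comparison, as reported and under 19 other settings; filled points have an adjusted p under 0.05. Abcc8 against beta cells stays between 0.48 and 0.81 on the log2 scale, while Kcnj11 between alpha and beta cells spans 0.

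The ratio of Abcc8 to Kcnj11 compares receptor with pore RNA per length within a library, so that library size drops out of it. It was 3.59 and 4.08 in the transdifferentiated libraries. Beta cell libraries gave 2.79, 3.44 and 3.05, and alpha cell libraries gave 2.92, 3.36 and 4.36. Receptor RNA exceeded pore RNA in every library, and the alpha libraries alone spanned nearly the whole range. The group means were 3.84 ± 0.344 in transdifferentiated cells (SD, n = 2), 3.09 ± 0.329 in beta cells (SD, n = 3) and 3.55 ± 0.738 in alpha cells (SD, n = 3). Over all 8 libraries the ratio was 3.45 ± 0.552.

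No group difference in this ratio passed a test against the spread between libraries. An exact permutation test over the 560 assignments of libraries to the 3 groups gave p = 0.318, with 0.00357 the smallest p possible. The log2 ratio of transdifferentiated cells was 0.31 above that of beta cells, a fold of 1.24 (two-sided exact permutation test, p = 0.2). It was 0.13 above that of alpha cells (p = 0.5, exact), and that of alpha cells was 0.18 above that of beta cells (p = 0.5, exact). None of these pairwise tests could go below 0.1 with 2 or 3 libraries a group. These tests also compare the change of Abcc8 with that of Kcnj11, which was thus not shown to differ although Abcc8 alone was called. The sexes overlapped in it: male pools ranged from 2.92 to 3.59 and female pools from 2.79 to 4.36.

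**Figure D3:**
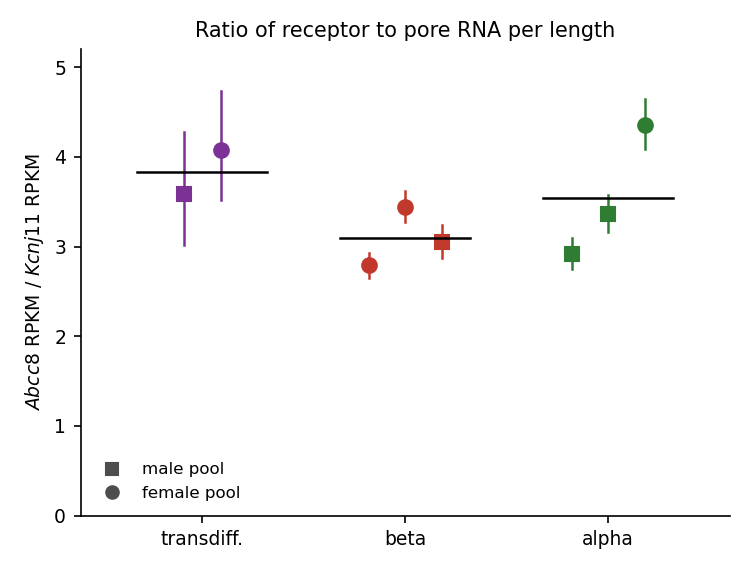
Abcc8 RPKM divided by Kcnj11 RPKM in each library (squares, male pools; circles, female pools; thin lines, 95% intervals from the reads of both genes; black bars, group means). The transdifferentiated libraries, at 3.59 and 4.08, fall within the alpha range of 2.92 to 4.36.

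How the reads were counted bears on the size of this ratio. The steps in the Kcnj11 values correspond to a counted length of 1173 bases, the length of its coding sequence with the stop codon in GENCODE M21, whose transcript with that coding sequence spans 3142 bases. Reads in the rest of the Kcnj11 transcript were thus not part of the deposited value. Abcc8 was counted over 4952 bases, close to its main transcript of 4877 bases. The ratio of raw reads was 11.8 to 18.4. The level of the ratio depends on these lengths and on even coverage, but its differences between libraries do not depend on the lengths.

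Abcc9, the receptor subunit of heart and smooth muscle, was near 0 in all groups. It was at 0.288 RPKM and 0 in the transdifferentiated libraries, from 3 reads and 0 reads. The beta libraries had 0.122, 0.156 and 0.125 RPKM, from 19, 28 and 15 reads, and the alpha libraries had 0.037, 0.0534 and 0.0339 RPKM, from 4, 6 and 4 reads. The 3 beta libraries lay above the 3 alpha libraries without overlap, as did those of 21.5% of the 26786 genes, and the transdifferentiated libraries were too shallow to be placed: a count of 0 in the second allowed up to 0.165 RPKM, the worth of 3 reads. In a fit without the filter on low values the alpha minus beta log2 difference was -0.29 (SE 0.15, limma adjusted p = 0.244). Pooled over a group and per length, the ratio of Abcc8 to Abcc9 was 3000 in transdifferentiated cells (95% counting interval 1030 to 14500). This ratio was 1540 in beta cells (1200 to 2010) and 5640 in alpha cells (3360 to 10300). The highest measured share of Abcc9 in the receptor RNA was 0.0859%, from the 3 reads of transdifferentiated replicate 1. It is not a bound, as the 95% interval of Abcc9 there reached 0.842 RPKM.

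An antisense gene overlaps Abcc9. The noncoding gene 5330439B14Rik runs on the opposite strand and covers 158 bases of an Abcc9 exon (chromosome 6, 142625937 to 142626094), and the libraries did not mark strand, so reads there cannot be assigned to either gene. Its own value was 0 in both transdifferentiated libraries, which were too shallow to place it. The beta libraries, at far greater depth, held only 27, 18 and 17 reads of it. The antisense gene was at 1.04, 0.604 and 0.852 RPKM in the beta libraries, against 0, 0.107 and 0 RPKM in the alpha libraries. Between beta and alpha libraries it was thus higher where Abcc9 was. Such a separation of the 3 beta from the 3 alpha libraries was seen for 21.5% of the 26786 genes. Immune cell markers were also highest in the beta libraries: summed over 10 genes they reached 7.83 to 27.3 RPKM in transdifferentiated, 78.2 to 92.8 RPKM in beta and 3.86 to 5.96 RPKM in alpha libraries, with Ptprc at 0 in the transdifferentiated ones. The part of either in the Abcc9 values was not tested. Mural cell markers are genes of pericytes and smooth muscle, in which Abcc9 and Kcnj8 are normally found. They had sums of 3.33 to 6.23 RPKM in transdifferentiated, 1.19 to 2.30 RPKM in beta and 2.78 to 4.12 RPKM in alpha libraries. Unlike Abcc9, their sum was thus lower in beta than in alpha libraries, although Myh11, Notch3 and Vtn had higher means in beta cells. Transdifferentiated replicate 1 had the highest value of both, from 22 mural reads and 3 Abcc9 reads. The part of mural cells in the Abcc9 and Kcnj8 values was not tested. Of these 11 markers, 7, 9 and 10 were above 0 in the transdifferentiated, beta and alpha groups, and Acta2, Des, Higd1b and Vtn had no read in the transdifferentiated libraries. Abcc8 is overlapped by the antisense gene Gm45486, for which no value was used here.

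**Figure D4:**
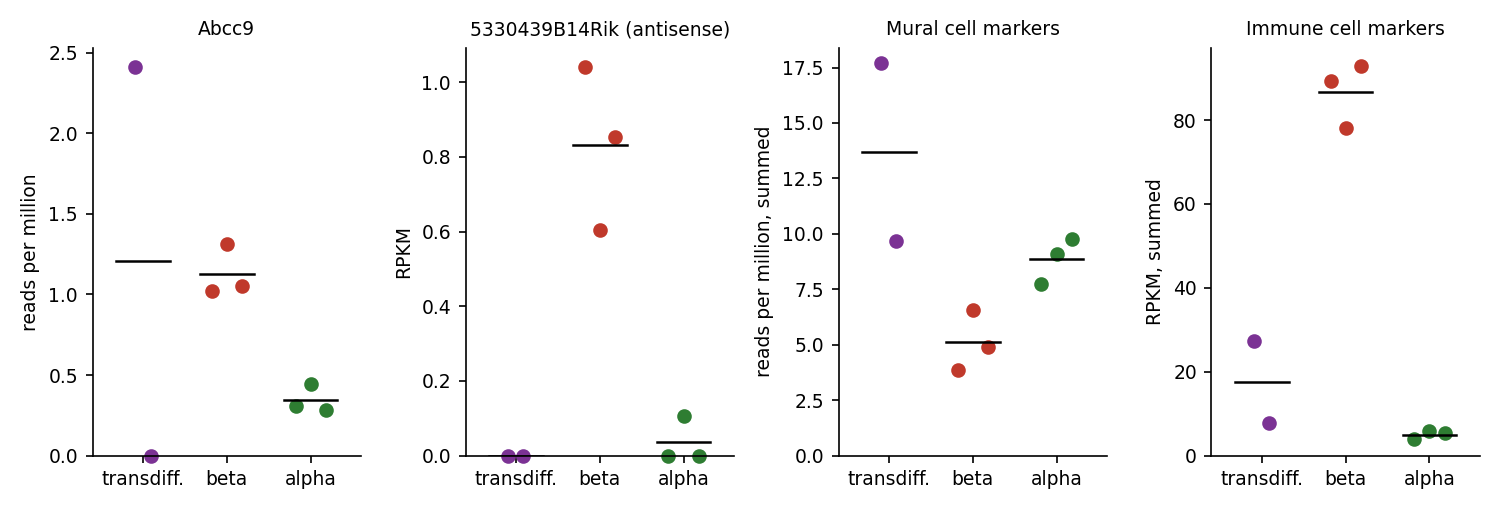
Abcc9 reads scaled to equal library size, its antisense neighbour 5330439B14Rik in RPKM, the summed reads of mural cell markers scaled in the same way and the summed RPKM of immune cell markers in each library (points; black bars, group means). Abcc9, 5330439B14Rik and the immune markers are higher in the 3 beta than in the 3 alpha libraries, while the mural markers are lower there.

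Kcnj8, the pore subunit of vascular smooth muscle, was at or near 0 in all groups. The transdifferentiated libraries had 1 read and 0 reads of it, the beta libraries 0, 5 and 2, and the alpha libraries 0, 0 and 1. In RPKM these were at most 0.315 in transdifferentiated, 0.0917 in beta and 0.0278 in alpha libraries. Where the count was 0, the 3 reads that such a count allows are worth 0.543 RPKM in the second transdifferentiated library and 0.0631 to 0.0912 RPKM in the beta and alpha libraries. Per length and pooled over the group, the ratio of Kcnj11 to Kcnj8 was 1340 in beta cells (95% counting interval 650 to 3330). The highest measured share of Kcnj8 in the pore RNA was 0.337%, from 1 read in transdifferentiated replicate 1. It is not a bound, as the 95% interval of Kcnj8 there reached 1.76 RPKM.

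Within their families the islet pair stood far above its relatives in level. Of the 13 other inwardly rectifying potassium channel genes only 4 passed the filter, and none exceeded a group mean of 6.16 RPKM. Kcnj3 and Kcnj6 encode pores gated by G proteins, and Kcnj2 and Kcnj12 classical inward rectifiers. Against beta cells none of the 4 was called in transdifferentiated cells; the most abundant were Kcnj12 (5.06 against 3.91 RPKM in beta cells, log2 difference 0.10) and Kcnj6 (3.03 against 1.63 RPKM in beta cells, 0.78). Against alpha cells, Kcnj12 rose in transdifferentiated cells, at 5.06 against 0.0732 RPKM in alpha cells (log2 difference 3.20, limma adjusted p = 0.000788), and Kcnj3 fell, at 0.452 against 6.16 RPKM in alpha cells (-2.81, limma adjusted p = 0.000156). Between alpha and beta cells all 4 were called, as were 43.6% of all genes tested. Kcnj3 (3.57), Kcnj2 (1.62) and Kcnj6 (1.23) were higher and Kcnj12 (-3.10) lower in alpha cells on the log2 scale. Kcnj2 and Kcnj3 reached 1 RPKM in alpha libraries only, and Kcnj12 in transdifferentiated and beta libraries only. They thus passed the filter through the groups where they were high, which favours such calls. The share over all genes is therefore not a like baseline for them.

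Of the 9 other genes of the Abcc8 family, mostly membrane exporters, 6 passed the filter. Abcc10 rose in transdifferentiated cells against both others, with a mean of 5.21 RPKM, beta cells having 2.65 RPKM (log2 difference 0.89, limma adjusted p = 0.0178) and alpha cells 3.16 RPKM (0.62, limma adjusted p = 0.0224), the call against alpha cells being lost with median-ratio scaling (0.42, adjusted p = 0.0717). It was the 1 gene of the 6 called against beta cells, where 12% of all genes tested were called. Abcc4, an exporter of cyclic nucleotides among others, was at 13.2 RPKM in transdifferentiated and 2.13 RPKM in alpha cells (2.32, limma adjusted p = 0.000111). Abcc12 was at 0.364 RPKM in transdifferentiated and 2.80 RPKM in alpha cells (-1.97, limma adjusted p = 0.00249). Abcc12 reached 1 RPKM in alpha libraries only and so passed the filter through the group where it was high. In alpha against beta cells Abcc12 (2.66) and Abcc5 (0.82) were higher and Abcc4 (-2.46) lower in alpha cells.

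**Figure D5:**
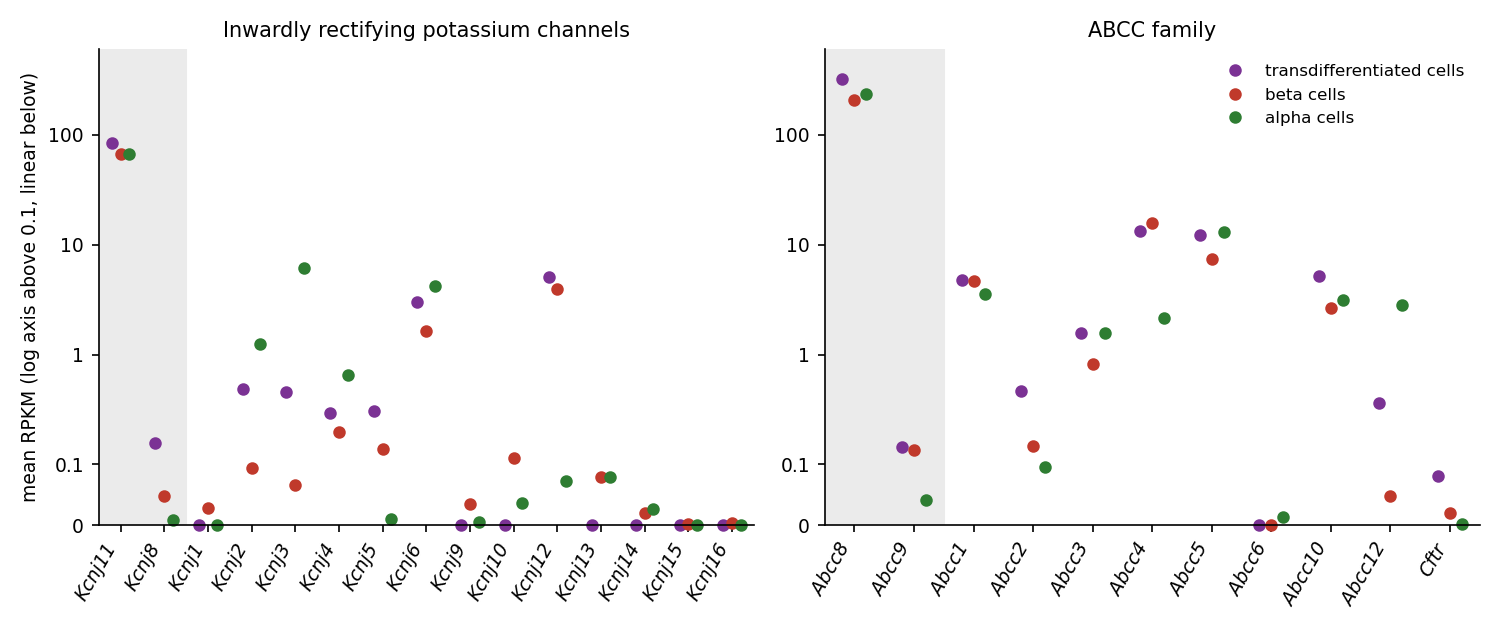
Mean RPKM of each inwardly rectifying potassium channel gene (left) and each gene of the ABCC family (right) in transdifferentiated, beta and alpha cells; the vertical axis is logarithmic above 0.1 RPKM and linear below, and the grey band marks the subunit genes of the ATP-sensitive channel. Kcnj11 and Abcc8 lie above all relatives in every group, and Kcnj8 and Abcc9 lie near 0.

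Proteins that fold, carry or bind the channel were examined as a list of 24 genes. Of the 23 tested, 1 rose and 3 fell in transdifferentiated against beta cells, with a median log2 difference of -0.11 beside 0.09 over all genes. Stx1a, the syntaxin that binds the receptor and the release machinery, rose: its mean was 9.58 RPKM in transdifferentiated and 4.80 RPKM in beta cells (log2 difference 0.95, limma adjusted p = 0.00501). Its mean in alpha cells was higher still, at 12 RPKM, and it was called lower in transdifferentiated than in alpha cells (-0.35, limma adjusted p = 0.0445). Ywhaz, a 14-3-3 protein of the family that lets the assembled channel leave the endoplasmic reticulum (-0.52), Derl1, of endoplasmic reticulum quality control (-0.50; -0.43 with adjusted p = 0.0539 after quantile normalization), and the chaperone gene Hsp90ab1 (-0.42) fell. Against alpha cells 9 rose and 3 fell, with a median of 0.24 beside 0.17; median-ratio scaling and quantile normalization each left 5 higher and 3 lower. Pip5k1b, a kinase that makes the lipid PIP2 which opens the channel, led them (2.11, limma adjusted p = 4.88e-05), followed by Pik3r1 (1.19), Derl1 (1.14) and Akap13 (1.06). Alpha cells set against beta cells had 3 of them higher and 11 lower, with a median of -0.30 beside -0.05. After quantile normalization these were 6 and 8. Of all genes tested, 9.1% were called higher and 2.9% lower in transdifferentiated against beta cells. Those shares were 23.2% and 6.67% against alpha cells, and 16.9% and 26.7% in alpha against beta cells.

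Genes of nucleotide supply, such as adenylate and creatine kinases, glycolytic enzymes and glucose uptake, were a list of 20, of which 19 were tested. In transdifferentiated against beta cells 2 rose and 3 fell, with a median log2 difference of -0.25 beside 0.09 over all genes. Ak5, an adenylate kinase (1.32), and Ckmt1, the mitochondrial creatine kinase (0.46, named after its value was seen), rose, the call of Ckmt1 being lost with median-ratio scaling (adjusted p = 0.0729) and quantile normalization (adjusted p = 0.0924). Slc2a2, the glucose transporter of beta cells (-1.17), Ckb, the cytosolic creatine kinase (-1.12), and G6pc2, an islet glucose-6-phosphatase (-1.08), fell. Against alpha cells 10 rose and 1 fell (6 and 1 with either of those scalings), with a median of 0.65 beside 0.17, led by G6pc2 (4.27), Slc2a2 (4.13), Ak5 (2.70) and Ckb (1.64). In alpha against beta cells none was higher and 13 were lower, with a median of -0.62 beside -0.05. With median-ratio scaling 1 was higher and 10 were lower, and after quantile normalization 1 and 9. Over all genes tested, the shares called higher and lower were 9.1% and 2.9% in transdifferentiated against beta cells. They were 23.2% and 6.67% against alpha cells, and 16.9% and 26.7% in alpha against beta cells.

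Of 22 genes for channels that act once the ATP-sensitive channel has closed, 19 were tested. In transdifferentiated against beta cells 5 rose and 1 fell, with a median log2 difference of 0.28 beside 0.09. The potassium leak channel genes Kcnk3 (2.30, limma adjusted p = 0.00327) and Kcnk16 (0.91, limma adjusted p = 0.0291), the sodium channel gene Scn3a (1.36, limma adjusted p = 0.0387) and the calcium channel gene Cacna1a (0.87, limma adjusted p = 0.0337) led the rises. Median-ratio scaling left 3 higher and 1 lower, with Kcnk16 (adjusted p = 0.0518) and Cacnb3 (0.52, adjusted p = 0.0516, named after its value was seen) missing the threshold, and after quantile normalization 4 were higher and 1 lower, Scn3a missing it (adjusted p = 0.0547). The cation channel gene Trpm5 (-0.65, named after its value was seen) fell. Against alpha cells 2 rose, Trpm5 (3.35) and Trpm2 (1.03), and Kcnk3 fell (-2.69), with a median of 0.17, equal to that over all genes. For alpha against beta cells 5 were higher and 3 lower, with a median of 0.12 beside -0.05. In that comparison 43.6% of all genes tested were called, 16.9% as higher and 26.7% as lower. The shares called in transdifferentiated cells were 12% against beta cells and 29.9% against alpha cells.

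The genes beside the 2 loci were read from the annotation. Ush1c, a scaffold protein gene 15316 bases beyond Abcc8, was at 35.6 ± 4.81 RPKM in transdifferentiated cells (SD, n = 2), 19.1 ± 4.03 RPKM in beta cells and 18.4 ± 2.54 RPKM in alpha cells (SD, n = 3 each). It rose in transdifferentiated cells against beta cells (log2 difference 0.88, SE 0.21, limma adjusted p = 0.0376) and against alpha cells (0.95, SE 0.21, limma adjusted p = 0.0139). Nomo1, 9740 bases beyond Kcnj11 on the other side, had 20.2, 23.9 and 18.8 RPKM in transdifferentiated, beta and alpha cells and was not called in the 2 comparisons of transdifferentiated cells. At the other locus Ldhb and Cmas lay 56879 and 54370 bases away and were at 4.36 and 22.6 RPKM in transdifferentiated cells, while Abcc9 and Kcnj8 between them were near 0. Both were called higher in transdifferentiated than in alpha cells (Ldhb 0.45, limma adjusted p = 0.025; Cmas 0.77, limma adjusted p = 0.00759) and neither was called against beta cells. Of a list of 9 genes near the 2 loci, which did not include Nomo1, 5 were tested. All 5 were higher in transdifferentiated than in alpha cells, Nucb2 (1.29) and Golt1b (0.38) among them. Of all genes tested, 23.2% were called higher in this comparison. Median-ratio scaling and quantile normalization each left 3 higher, with Ldhb (adjusted p = 0.166 and 0.217) and Golt1b (0.326 and 0.473) no longer called. Against beta cells 1 was higher, Ush1c, and 1 was lower, Nucb2 (-0.42, limma adjusted p = 0.0246). The call of Nucb2 against beta cells was lost after quantile normalization (-0.31, adjusted p = 0.0692). Nucb2 and Golt1b are named after their values were seen.

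The pattern of each subunit gene over the 8 libraries was compared with that of 13171 other genes by Pearson correlation of log2(RPKM + 0.5). The libraries share cell groups and differ in depth, and the values are descriptions. The genes most like Abcc8 were D430042O09Rik (r = 0.993), Eqtn (0.988), Zfp354a (0.986), Odf2 (0.983) and Taok2 (0.982). Those most like Kcnj11 were Apoa1bp (0.956), Enoph1 (0.949), Mblac1 (0.936), Repin1 (0.928) and 2010001A14Rik (0.928). Abcc8 and Kcnj11 themselves correlated at 0.594, which placed Kcnj11 at position 2566 among the genes compared with Abcc8. Both varied little: the highest library had 1.72 times the lowest for Abcc8 and 1.56 times for Kcnj11, and 58.0% and 70.1% of the genes tested had a wider range on the log2 scale.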

How the data were processed

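The submitters' processing notes name the aligner STAR 2.5, the read counter featureCounts, edgeR 3.14.0 and, as genome, GRCm38.p4; annotation, strand setting and filters were not given in the sources used here. The deposited table holds RPKM made by the authors for 46959 entries and 8 libraries, 4 entries with repeated names being left out. Per the labels' protocols, RNA went into TruSeq RNA v2 libraries, which do not mark strand. The labels do not say that replicates are separate preparations, so p-values measure the spread between libraries, which may be technical in part; replicates are numbered in accession order, and beta 2 and 3 and alpha 2 and 3 carry an unexplained letter b in their titles. The sex term separates male from female pools.

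Reads were recovered as whole multiples (within 0.01 read) of the RPKM worth of 1 read, with gene lengths from GENCODE M21 (78.5% of 25394 matched genes) or solved from the steps (6858 genes); the library sizes implied by the steps were 1.00016 to 1.00021 times their sums. limma 3.58.1 (R 4.3.3, eBayes with trend) was the main test. Tested on simulated data shaped like the libraries, its calls of transdifferentiated against beta cells held nearly as many false as true ones, almost all of the false ones in genes with a mean under 10 RPKM, so that calls of low genes there are uncertain. Poisson intervals are at 95%; the floor is 3 reads. The subunit genes were named in full; of each other gene list the called members with the largest differences (up to 4) were named, and of all genes the 5 most correlated with each subunit. The members and lists were chosen with earlier results of these data known. The alternatives were other pseudocounts (0.1 and 1), filters, scalings and terms, limma voom on recovered reads, and leaving out each library; averaging same-title libraries and a block of sex and title letter were added after seeing the data.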

Additional observations from a re-analysis of the deposited data

How the results depend on the processing

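The call of Abcc8 in transdifferentiated against beta cells held its sign in all 19 alternatives, with adjusted p from 0.0138 to 0.091, and was lost in 6: without a filter on low values (log2 difference 0.63, adjusted p = 0.0563), after quantile normalization (0.67, adjusted p = 0.0578), with same-title libraries averaged (0.64, chosen after seeing the data), and without transdifferentiated replicate 1 (adjusted p = 0.067), beta replicate 1 (0.0604) or beta replicate 3 (0.091). Leaving out each library gave 0.48 to 0.81. Against alpha cells the call was lost in 7, with no filter (0.44, adjusted p = 0.0681), median-ratio scaling (0.21), quantile normalization (0.33), same-title libraries averaged (0.42) and without transdifferentiated replicate 1, alpha replicate 1 or alpha replicate 2; leaving out each library gave 0.26 to 0.59. Kcnj11 against alpha cells gave 0.20 to 0.47 when libraries were left out. Kcnj11 between alpha and beta cells changed sign with median-ratio scaling (0.03), quantile normalization (0.29), and without beta replicate 1 (0.01) or alpha replicate 3 (0.0014), within a leave-one-out range of -0.24 to 0.01. For the ratio, the pairwise tests cannot go below 0.1, so the alternatives say nothing about their stability; the test over 3 groups gave p of 0.181 to 0.59 when libraries were left out. The causes were not tested.

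Counts of called genes moved more. Against beta cells, 1580 became 877 without a filter, 485 at a mean of at least 10 RPKM, 769 with limma voom, 462 with same-title libraries averaged, and 235 to 1649 when libraries were left out (235 without beta replicate 3). Against alpha cells, 3932 became 2002 at that mean and 2553 with limma voom, and 2447 to 3735 when libraries were left out. Between alpha and beta cells, 5743 became 2738 at that mean and 3117 to 6609 when libraries were left out. Fewer genes or libraries entered those fits, save for voom and the fit without a filter. Between sexes 6 became 1 at that mean, 2 with same-title libraries averaged, and 2 to 6 when libraries were left out, and the test of the sex dependence of the alpha to beta difference called 668 without a filter, in place of 0. The share called higher moved with scaling: against beta cells from 75.8% to 52.7% (median ratio) and 55.2% (quantile), against alpha cells from 77.6% to 51.5% and 49.9%. Between alpha and beta cells 38.8% became an even split under either. For Abcc9 and Kcnj8 the untested log2 differences move with the pseudocount (alpha minus beta Abcc9, -0.73 at 0.1 and -0.12 at 1). The labels give no replicate numbers shared between groups, but the 4 sets of libraries that share sex and title letter could be fitted as a replicate block, a choice made after seeing the data: Abcc8 was 0.68 higher than in beta cells (adjusted p = 0.0212) and 0.53 higher than in alpha cells (adjusted p = 0.0261), Kcnj11 gave 0.13 and 0.22 with neither called, and no call of the subunit genes changed. Libraries of a set deviated from their group means with correlations of -0.03 to 0.43 over genes, so that the sets were not taken as pairs. Depth limits Kcnj11, Abcc9 and Kcnj8 in the transdifferentiated libraries.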

Other observations

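Transcription factors of islet cells, 14 tested of 15 listed, moved in both directions. In transdifferentiated against beta cells Isl1 (log2 difference 1.11, limma adjusted p = 0.0128) rose, and Mafa (-1.47, limma adjusted p = 0.00981) and Pparg (-0.85, limma adjusted p = 0.0352) fell, with a median of 0.15 beside 0.09 over all genes. Against alpha cells 6 rose and none fell (4 and 1 with median-ratio scaling, 4 and 0 after quantile normalization), led by Mafa (4.88), Pdx1 (4.39), Nkx6-1 (2.90) and Pparg (2.44), with a median of 0.46 beside 0.17. Of all genes tested, 23.2% were called higher and 6.67% lower against alpha cells, and 9.1% and 2.9% against beta cells.

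Marker genes of other cell types were summed in each sort. Whether that RNA came from other cells was not tested, and some listed genes were abundant in every group. Krt18, for example, had means of 162, 167 and 104 RPKM in transdifferentiated, beta and alpha cells. Delta cell markers summed to 3030 to 3170 RPKM in transdifferentiated, 369 to 947 RPKM in beta and 1460 to 3240 RPKM in alpha libraries. Most of this was Sst, with means of 2820, 535 and 1730 RPKM. Of the 8 delta markers tested, 3 were called higher and 2 lower (Fam159b and Pcsk6) in alpha than in beta cells. Over all genes tested these shares were 16.9% and 26.7%. Markers of PP and epsilon cells summed to 8250 to 11400, 590 to 1270 and 7960 to 13000 RPKM in transdifferentiated, beta and alpha libraries. Nearly all of that was Ppy and Pyy, at means of 5290 and 4560 RPKM in transdifferentiated cells. The epsilon marker Ghrl had means of only 0.586, 0.243 and 1.75 RPKM. Exocrine and duct markers summed to 746 to 960, 488 to 2000 and 911 to 3120 RPKM, ranges that overlapped between all groups. Endothelial markers summed to 6.72 to 12.7 RPKM in transdifferentiated, 3.59 to 5.70 RPKM in beta and 4.98 to 7.56 RPKM in alpha libraries. Their part in the subunit values was not tested.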
